A study of Homo sapiens with 12 samples.

Results

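Solute carrier (SLC) genes encode membrane proteins that move sugars, amino acids, ions, metals, nucleosides and metabolites across the plasma membrane and the membranes of organelles. They were taken here as every gene whose symbol consists of SLC, a family number from 1 to 52, a subfamily letter and a member number, and that was listed in both deposited tables. This gave 182 genes of the 11326 genes common to both tables. A further 29 SLC genes were listed in the first table only, and SLC2A3 and SLC34A2 in the second only; these are not described. Substrate classes were assigned from general knowledge, and their counts were not tested against those of all genes.

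RNA was sequenced from MCF-12A, an established non-tumour epithelial cell line from human breast. One group had received TGFbeta1, a secreted cytokine that induces growth arrest and mesenchymal change in epithelial cells, and the control group vehicle. The line was not otherwise modified, per the labels, and they give neither dose nor duration. Replicates 1 to 3 of each group form a first set of 6 libraries and replicates 4 to 6 a second set, each with its own table of FPKM (fragments normalised for the length of the transcript and the total mapped in a library). Nothing says that replicates were separate cultures, so p-values measure the spread between these libraries, which may be technical. Depth is unknown, since no counts were used.

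Many amino acid carriers work in pairs with ion gradients. SLC7A5, for example, binds the heavy chain SLC3A2 at the cell surface and exchanges intracellular glutamine for leucine and other large neutral amino acids, and SLC1A5 and SLC38A2 bring in the glutamine. SLC2 proteins carry hexoses, SLC16 proteins lactate and pyruvate, SLC39 and SLC30 proteins move zinc into and out of the cytosol, and the SLC25 family links the cytosol with the mitochondrial matrix. In epithelia several of these genes follow nutrient supply through the transcription factor ATF4, and SLC12, SLC4, SLC9 and SLC26 proteins set volume, pH and anion transport.

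The 6 genes used to check the treatment (SMAD7, SKIL, PMEPA1, TGFBI, ITGB6 and LTBP2) were all higher with TGFbeta1 in the first set, with a median log2 change of 2.05, and their summed level was 144 to 188 FPKM in the controls and 796 to 917 with TGFbeta1. In the second set none was called and the median was -0.252, with 228 to 279 FPKM in the controls and 90.4 to 183 in the TGFbeta1-labelled group. That group is therefore called the libraries labelled TGFbeta1. All 8 epithelial markers were present in both tables. Their summed level in the first set was 2500 to 3240 FPKM in controls and 1900 to 2210 with TGFbeta1. Of the 8, 3 were called lower, beside 11.9% of all genes, and none higher. The log2 change was negative for 6 and positive for 2 (KRT8 and TP63). The part of these markers in the changes below was not tested. Of 14 markers of blood, endothelial, stromal, liver and fat cells, 11 were not listed in the first table, and the other 3 (CD14, RGS5 and PLIN1) summed to 3.19 to 3.74 FPKM in controls and 0.82 to 1.15 with TGFbeta1.

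In the first set SLC genes changed in both directions, more often downward. Of the 182 genes, 165 reached a mean of 1 FPKM and were tested, and 17 did not. With limma on log2(FPKM + 1), two-sided, adjusted over all 10454 genes tested and called at an adjusted p under 0.05, 16 SLC genes were higher and 31 lower with TGFbeta1 (28.5% of those tested). Of the genes called, SLC6A14, SLC16A5 and SLC16A14 had a mean under 1 FPKM with TGFbeta1 and passed the filter through their controls. Among all genes tested, 20.9% were called, 9.00% higher and 11.9% lower. At an unadjusted p under 0.05 there were 66 SLC genes (40.0%), beside 35.0% of all genes. The median log2 change was -0.030 over the SLC genes and -0.055 over all genes. All 3 TGFbeta1 libraries lay outside the range of the controls for 28 SLC genes above and 46 below, 44.8% of those tested, beside 43.3% of all genes. Called genes were picked by the difference between the same libraries. That their groups stand apart, as given by class below, is therefore description and no added support. Together the SLC genes made up 1.06 ± 0.0571% of the summed FPKM in controls and 0.941 ± 0.0404% with TGFbeta1 (SD, n = 3). The summed FPKM of all tested genes was also lower with TGFbeta1, at 291700 ± 1010 beside 310400 ± 5990 in controls. Leaving out 1 library at a time left 7 to 12 higher and 16 to 28 lower. The calls of 18 genes (12 lower and 6 higher) held in all 6 such fits, and SLC16A14 held in the 5 fits that tested it. The sign of each of the 47 changes was the same under every alternative tried.

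**Figure D1:**
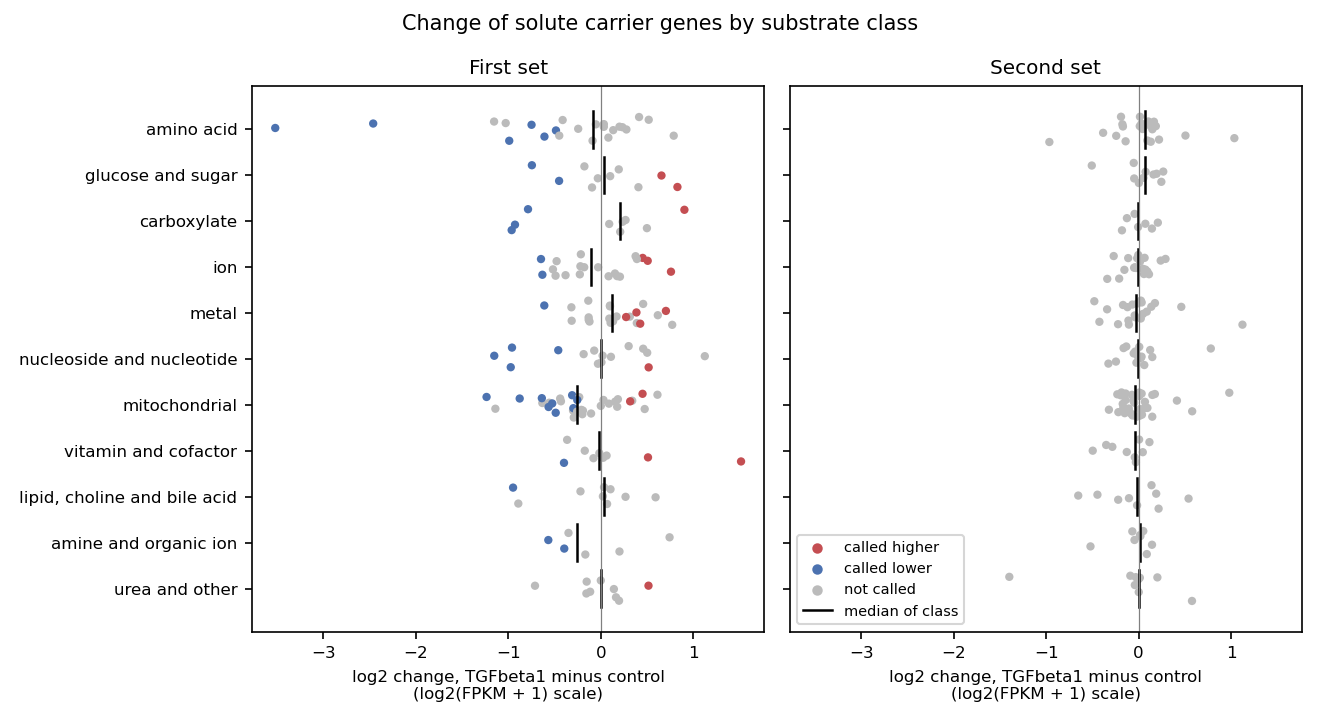
Log2 change (x axis, TGFbeta1 minus control, on the log2(FPKM + 1) scale) of each tested SLC gene by substrate class (y axis) in the first set (left) and the second set (right); points are genes, coloured by the limma call, and black lines are class medians. In the first set 16 genes are called higher and 31 lower, and in the second set no gene is called.

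The promoter sequences below belong to SLC7A5, SLC6A14 and SLC1A3, lower with TGFbeta1 in the first set, and to SLC46A3 and SLC26A2, higher. They are shown because these genes carry the largest or steadiest amino acid transporter falls and clear rises, and 3 of them hold a searched motif. Each is the 250 bases before the RefSeq start site, 5′ to 3′ on the gene's strand, on GRCh38 (RefSeq GRCh38.p14), while the deposited values were made on hg19. Capitals mark a match to CACGTG (the E-box of MYC, USF and TFE3 factors) or to TGATGNAA (the ATF4 element).
SLC7A5, chr16:87869508-87869757, minus strand: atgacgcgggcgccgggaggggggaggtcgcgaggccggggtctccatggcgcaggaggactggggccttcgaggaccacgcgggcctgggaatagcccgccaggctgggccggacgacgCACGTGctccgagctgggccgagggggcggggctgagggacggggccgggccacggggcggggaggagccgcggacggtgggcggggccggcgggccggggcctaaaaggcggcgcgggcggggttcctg
SLC6A14, chrX:116436356-116436605, plus strand: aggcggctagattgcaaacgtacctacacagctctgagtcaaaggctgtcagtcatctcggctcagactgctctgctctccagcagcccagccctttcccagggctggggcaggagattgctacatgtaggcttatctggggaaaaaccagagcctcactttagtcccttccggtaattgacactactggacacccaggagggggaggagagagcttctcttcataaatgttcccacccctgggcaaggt
SLC1A3, chr5:36596338-36596587, plus strand: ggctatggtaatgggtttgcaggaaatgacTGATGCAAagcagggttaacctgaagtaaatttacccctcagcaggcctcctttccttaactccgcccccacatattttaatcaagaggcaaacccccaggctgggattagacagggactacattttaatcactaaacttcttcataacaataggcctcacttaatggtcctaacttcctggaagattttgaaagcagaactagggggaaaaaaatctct
SLC46A3, chr13:28718971-28719220, minus strand: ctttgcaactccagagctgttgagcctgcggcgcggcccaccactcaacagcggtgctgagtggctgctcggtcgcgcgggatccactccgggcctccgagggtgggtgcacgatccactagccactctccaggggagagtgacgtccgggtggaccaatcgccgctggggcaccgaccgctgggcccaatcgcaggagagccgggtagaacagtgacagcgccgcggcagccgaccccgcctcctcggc
SLC26A2, chr5:149960508-149960757, plus strand: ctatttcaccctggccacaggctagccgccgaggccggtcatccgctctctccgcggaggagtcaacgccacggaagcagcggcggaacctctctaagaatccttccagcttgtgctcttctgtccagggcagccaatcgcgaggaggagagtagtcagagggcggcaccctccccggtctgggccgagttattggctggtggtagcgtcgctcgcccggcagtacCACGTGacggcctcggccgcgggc
The E-box begins 130 bases before the start of SLC7A5 and 24 before that of SLC26A2. The ATF4 element begins 220 bases before the first of the 3 starts listed for SLC1A3. Positions were not matched between GRCh38 and hg19. Whether the transcripts summed for SLC1A3 begin at the start shown was therefore not tested. The windows shown for SLC6A14 and SLC46A3 hold none of the searched letters.

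RefSeq start sites were found for 146 of the 182 genes, with 217 windows, since some genes have several. Both strands were searched, and no window held matches to more than 1 of the motifs. CACGTG was found in 12.9% of the SLC windows and in 6.34% of all 35093 windows in the table. Among windows of genes called in the first set, 6 of 41 (lower) and 3 of 24 (higher) held it, beside 15 of 136 windows of SLC genes that were tested and not called. Windows of 1 gene are not independent. Counted by gene, 5 of 25 (lower), 3 of 16 (higher) and 15 of 93 (not called) held it. Over all SLC genes it was 27 of 146, beside 2110 of 27305 genes searched. TGATGNAA was found in 2.3% of SLC windows and 3.15% of all windows, and in 1 of the 41 and 0 of the 24. GTCTAGAC, the palindrome bound by SMAD3 and SMAD4, was in none of the SLC windows and in 0.182% of all. A match describes these letters only.

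Amino acid transporters. Of 23 tested members, 6 fell and none rose in the first set (26.1% called, beside 20.9% of all genes). Their summed level was 846 ± 209 FPKM in controls and 478 ± 5.75 with TGFbeta1 (SD, n = 3). The tested family 7 members, SLC7A5 among them, summed to 328 ± 188 and 69.2 ± 17.7 FPKM. They held a large part of this fall and of the spread between controls. SLC7A5, the light chain of the large neutral amino acid exchanger, was at 103, 443 and 303 FPKM in controls 1 to 3 and at 49.4, 45.8 and 34.3 FPKM in TGFbeta1 libraries 1 to 3 (log2 change -2.46, SE 0.55, adjusted p = 0.0295). The controls spread over more than the whole range of the treated libraries, and no treated library reached the lowest control. Its heavy chain SLC3A2 stood at 203, 174 and 144 FPKM in controls and 110, 114 and 84.1 FPKM with TGFbeta1 (log2 change -0.75, SE 0.17, adjusted p = 0.0327), again without overlap. SLC43A1, a carrier of large neutral amino acids that needs no heavy chain, fell from 4.09, 3.27 and 3.05 FPKM to 1.82, 1.97 and 1.97 FPKM (log2 change -0.61, SE 0.11, adjusted p = 0.017). These 3 genes were each lower in every treated library of the first set. SLC43A2, of the same family as SLC43A1, was at 2.98, 2.64 and 2.49 FPKM in controls and 2.83, 2.84 and 2.66 FPKM with TGFbeta1 (log2 change 0.03, adjusted p = 0.834; 95% interval -0.19 to 0.25), and its groups overlapped. Calls were lost for SLC7A5 without control 2, control 3 or any 1 TGFbeta1 library (adjusted p = 0.0652 to 0.0885), SLC3A2 without control 1, control 2 or any 1 TGFbeta1 library (adjusted p = 0.0613 to 0.0898) and SLC43A1 without TGFbeta1 1 or TGFbeta1 2 (adjusted p = 0.0553 to 0.0603). SLC3A2 also lost its call under other scalings (adjusted p = 0.0549 with an equal sum, 0.0605 with quantile normalisation).

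SLC6A14 had the largest change of the tested SLC genes on the log2(FPKM + 1) scale. This sodium- and chloride-coupled carrier of neutral and cationic amino acids was at 10.1, 9.84 and 11.8 FPKM in controls 1 to 3, and the TGFbeta1 libraries list it at 0, 0.0128 and 0.00597 FPKM (log2 change -3.52, SE 0.10, adjusted p = 5.42e-05). The treated libraries of the first set were at or near 0, where no fold can be given. SLC1A3, a glutamate and aspartate transporter, was at 13.5, 13.4 and 12.6 FPKM in controls and 5.93, 6.14 and 6.29 FPKM with TGFbeta1 (log2 change -0.99, SE 0.07, adjusted p = 0.00064), with a gap between the groups wider than the spread within either. Both calls held without any 1 library. SLC38A2, a sodium-coupled carrier of small neutral amino acids, was at 91.7, 84.6 and 88.9 FPKM in controls and 65.7, 55.7 and 67.6 FPKM with TGFbeta1 (log2 change -0.49, SE 0.09, adjusted p = 0.0181), and its groups did not overlap. Its call was lost without control 1 (adjusted p = 0.0633).

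SLC1A5 and SLC7A11 varied between libraries of 1 group as much as between groups. SLC1A5, a glutamine carrier, was at 60.1, 120 and 45.8 FPKM in controls and 39.1, 72.5 and 96.7 FPKM with TGFbeta1 (log2 change -0.09, SE 0.47, adjusted p = 0.913; 95% interval -1.26 to 1.08). SLC7A11, the cystine carrier that supplies glutathione synthesis, was at 11.4, 11.8 and 1.33 FPKM and 4.79, 5.07 and 3.1 FPKM (log2 change -0.45, SE 0.70, adjusted p = 0.693). Control 3 was far below the other controls for SLC7A11, and for SLC1A5 the order of libraries crossed the groups. The interval of SLC1A5 spans more than a doubling in either direction on the log2 scale, so a change of that size was not detectable here.

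**Figure D2:**
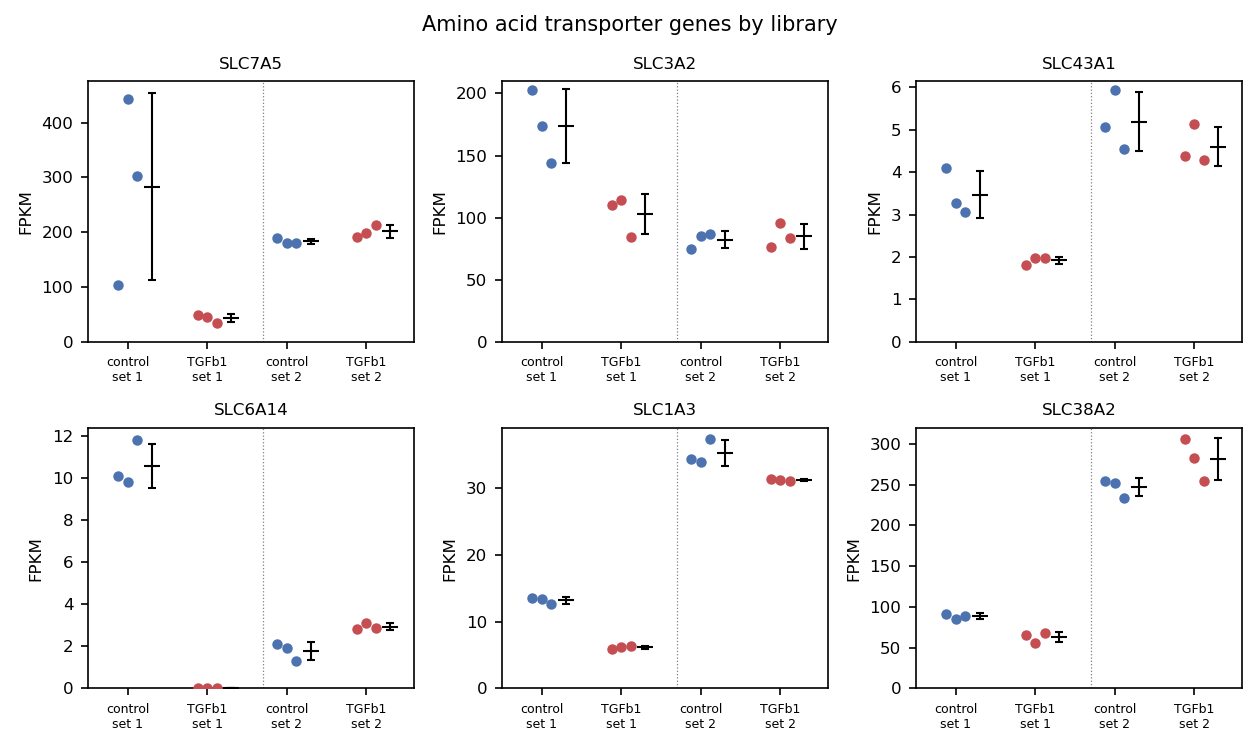
FPKM (y axis, linear from 0) of 6 amino acid transporter genes in each library (points) with the mean and SD (bars, n = 3) for control and TGFbeta1 groups of the first and second set (x axis). In the first set all 3 TGFbeta1 libraries lie below all 3 controls in each panel; the 2 sets were normalised separately, so levels are compared only within a set.

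Genes of the amino acid response other than SLC genes were described beside them. ATF4, the transcription factor of this response, was at 216 ± 7.87 FPKM in controls and 162 ± 22.2 FPKM with TGFbeta1 in the first set (SD, n = 3; log2 change -0.42, adjusted p = 0.0512). Of 26 listed and tested genes of the response, 6 were lower (DDIT3, DDIT4, SESN2, ALDH18A1, CTH and WARS) and 1 higher (CEBPB), which is 26.9% called beside 20.9% of all genes. The change was negative for 24 of the 26, beside 5891 of all 10454 genes, and the list's median log2 change was -0.535. The stress factor gene DDIT3 fell from 11 ± 0.957 to 3.23 ± 0.258 FPKM (log2 change -1.50, adjusted p = 0.000506). DDIT4, an inhibitor of mTORC1, fell from 493 ± 18.1 to 313 ± 16.4 FPKM (log2 change -0.65, adjusted p = 0.00167). None of the 24 tested in the second set was called, and the median was 0.086.

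Glucose and sugar transporters. Of 10 tested members 2 rose and 2 fell (40.0% called, beside 20.9% of all genes). The summed level was 114.5 ± 9.46 FPKM in controls and 111.9 ± 4.70 with TGFbeta1 (SD, n = 3). SLC2A1, the main glucose transporter of proliferating epithelial cells, was at 27.9, 31.1 and 33.1 FPKM in controls and 27.4, 29.7 and 28.7 FPKM with TGFbeta1 (log2 change -0.10, SE 0.08, adjusted p = 0.472; 95% interval -0.31 to 0.11). Its groups overlapped. SLC2A6, a hexose transporter of lysosomal membranes, rose from 1.12, 1.05 and 1.31 FPKM to 2.45, 2.71 and 3.41 FPKM (log2 change 0.83, SE 0.12, adjusted p = 0.00833), and the lowest treated library was above the highest control. SLC45A3 rose from 2.17, 2.72 and 3.46 FPKM to 4.35, 5.71 and 4.72 FPKM (log2 change 0.66, SE 0.16, adjusted p = 0.0401). Lower were SLC45A4, from 4.58, 4.23 and 5.29 FPKM to 2.32, 2.49 and 2.36 FPKM (log2 change -0.75, SE 0.10, adjusted p = 0.00537), and the intracellular hexose transporter SLC2A8, from 3.42, 3.09 and 2.85 FPKM to 1.89, 2.19 and 1.94 FPKM (log2 change -0.45, SE 0.10, adjusted p = 0.0259). No group overlapped in these 4. The calls of SLC2A6 and SLC45A4 held without any 1 library, and calls were lost for SLC45A3 without control 1, control 2 or any 1 TGFbeta1 library (adjusted p = 0.073 to 0.113) and SLC2A8 without control 1, control 2 or any 1 TGFbeta1 library (adjusted p = 0.0551 to 0.0837). With sums over transcripts in both tables only, SLC2A6 and SLC2A8 had an adjusted p = 0.0598 and 0.0784.

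Carboxylate transporters. Of 9 tested members 1 rose and 3 fell (44.4% called, beside 20.9% of all genes). All of those called were family 16 genes other than the main lactate carriers. SLC16A4 was at 1.6, 2.22 and 1.49 FPKM in controls and 4.22, 4.38 and 3.84 FPKM with TGFbeta1 (log2 change 0.90, SE 0.13, adjusted p = 0.0066). SLC16A7, a high-affinity carrier of pyruvate and lactate, was at 4.09, 4.14 and 3.72 FPKM in controls and 2.03, 1 and 1.74 FPKM with TGFbeta1 (log2 change -0.96, SE 0.17, adjusted p = 0.0144). SLC16A5 was at 2.94, 2.56 and 2.58 FPKM and 1.1, 0.915 and 0.813 FPKM (log2 change -0.93, SE 0.10, adjusted p = 0.00291), and SLC16A14 at 1.86, 1.66 and 1.61 FPKM and 0.543, 0.51 and 0.657 FPKM (log2 change -0.79, SE 0.09, adjusted p = 0.00399). All 4 separated the groups in the first set. Of these only SLC16A7 lost its call on leaving out a library, namely control 1 or control 2 (adjusted p = 0.0521 to 0.0528). SLC16A3, the lactate exporter of glycolytic cells, was far more abundant, at 115, 110 and 168 FPKM in controls and 183, 174 and 117 FPKM with TGFbeta1 (log2 change 0.27, SE 0.24, adjusted p = 0.479), and SLC16A1, which carries lactate in either direction, at 23.4, 49.2 and 22.6 FPKM and 24, 24.1 and 54.6 FPKM (log2 change 0.09, SE 0.44, adjusted p = 0.908). The groups overlapped for both.

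Ion transporters. Of 20 tested members 3 rose and 2 fell (25% called, beside 20.9% of all genes). SLC26A2, which takes up the sulfate used to make sulfated proteoglycans, was at 10.6, 10.9 and 10.7 FPKM in controls and 19.8, 19.6 and 17.3 FPKM with TGFbeta1 (log2 change 0.76, SE 0.08, adjusted p = 0.00247). SLC12A4, a potassium-chloride cotransporter, was at 8.36, 7.06 and 8.79 FPKM and 11.7, 11.9 and 11.9 FPKM (log2 change 0.51, SE 0.09, adjusted p = 0.0176), and the sodium-phosphate cotransporter SLC20A1 at 58.2, 60.3 and 77 FPKM and 86.5, 86.5 and 93.5 FPKM (log2 change 0.45, SE 0.12, adjusted p = 0.0498). Both genes that fell belong to the bicarbonate transporter family. SLC4A2, a chloride-bicarbonate exchanger, fell from 35.5, 35.3 and 36.6 FPKM to 21.7, 23 and 23.5 FPKM (log2 change -0.63, SE 0.06, adjusted p = 0.00214), and SLC4A11 fell from 2.35, 2.43 and 3.08 FPKM to 1.15, 1.15 and 1.63 FPKM (log2 change -0.65, SE 0.13, adjusted p = 0.0241). The groups stood apart in all 5. The calls of SLC26A2 and SLC4A2 held without any 1 library, and calls were lost for SLC12A4 without any 1 TGFbeta1 library (adjusted p = 0.0544 to 0.0611), SLC20A1 without control 1, control 2 or any 1 TGFbeta1 library (adjusted p = 0.113 to 0.132) and SLC4A11 without any 1 control, TGFbeta1 1 or TGFbeta1 2 (adjusted p = 0.0514 to 0.0798). The other 2 tested genes of the bicarbonate family lay higher in every treated library without passing the threshold. SLC4A7, a sodium-bicarbonate cotransporter, was at 4.05, 3.95 and 4.67 FPKM in controls and 5.71, 5 and 6.68 FPKM with TGFbeta1 (log2 change 0.38, adjusted p = 0.0835), and SLC4A3 at 1.22, 1.2 and 1.7 FPKM and 2.42, 2.15 and 1.75 FPKM (log2 change 0.39, adjusted p = 0.103). SLC20A1 lay at the threshold and also lost its call under 6 other settings (adjusted p = 0.0506 to 0.0584). With a term for the replicate number in limma its adjusted p was 0.0605. SLC12A2, which loads cells with chloride, was at 5.1, 4.98 and 5.25 FPKM in controls and 2.16, 3.55 and 4.39 FPKM with TGFbeta1 (log2 change -0.52, SE 0.20, adjusted p = 0.134), lower in each treated library but not past the threshold.

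Metal transporters. Of 22 tested members 4 rose and 1 fell (22.7% called), and 15 of the 22 had a positive change, with a median log2 change of 0.118. Of 10 tested zinc importers of family 39, 3 rose and none fell; of 5 zinc exporters of family 30 none was called. Beside the 20.9% called among all genes (9.00% higher), these numbers are too small to set importers apart from exporters, and that difference was not tested. SLC39A7, which releases zinc from the endoplasmic reticulum, was at 38.3, 37.3 and 44 FPKM in controls and 53.3, 53 and 55 FPKM with TGFbeta1 (log2 change 0.43, SE 0.08, adjusted p = 0.0185). SLC39A13, a zinc transporter of intracellular vesicles, was at 4.84, 7.67 and 4.79 FPKM and 10.1, 10.4 and 9.04 FPKM (log2 change 0.70, SE 0.18, adjusted p = 0.0444), and the plasma membrane importer SLC39A10 at 9.38, 10.7 and 11.4 FPKM and 13.7, 13.6 and 14.7 FPKM (log2 change 0.38, SE 0.09, adjusted p = 0.0381). No treated library fell within the control range for these 3. The magnesium transporter SLC41A1 rose from 7.28, 7.97 and 7.6 FPKM to 9.35, 9.23 and 9.62 FPKM (log2 change 0.27, SE 0.07, adjusted p = 0.046). SLC48A1, a heme transporter of endosomes and lysosomes, fell from 13.7, 12.3 and 10.9 FPKM to 7.56, 7.59 and 7.87 FPKM (log2 change -0.61, SE 0.10, adjusted p = 0.0101). The call of SLC48A1 held without any 1 library and was lost with a term for the replicate number in limma (adjusted p = 0.0505). Calls were lost for SLC39A7 without control 1, control 2 or any 1 TGFbeta1 library (adjusted p = 0.0566 to 0.0636), SLC39A13 without control 1, control 3 or any 1 TGFbeta1 library (adjusted p = 0.0874 to 0.126), SLC39A10 without control 1, control 2 or any 1 TGFbeta1 library (adjusted p = 0.0855 to 0.103) and SLC41A1 without any 1 library (adjusted p = 0.0741 to 0.128). With sums over transcripts in both tables only, SLC39A10, SLC39A13 and SLC41A1 had an adjusted p = 0.112, 0.0906 and 0.0569.

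Among metal genes that were not called, SLC39A6, a zinc importer linked to epithelial-mesenchymal transition, was at 36.9, 25.1 and 23.7 FPKM in controls and 25.3, 25.5 and 25.5 FPKM with TGFbeta1 (log2 change -0.13, SE 0.17, adjusted p = 0.631), and the zinc exporter SLC30A1 at 27.3, 27.8 and 23 FPKM and 27.8, 28.5 and 26.8 FPKM (log2 change 0.09, SE 0.09, adjusted p = 0.533). Both overlapped between groups. SLC39A1, an abundant zinc importer, was at 75.3, 78.3 and 23.2 FPKM in controls and 70.3, 73.2 and 70.4 FPKM with TGFbeta1 (log2 change 0.46, SE 0.47, adjusted p = 0.542), with control 3 alone low. Of 13 tested genes of zinc and iron handling outside the SLC genes, 5 rose (MT1F, MT1X, MT2A, FTL and HMOX1) and none fell (38.5% called, beside 9.00% higher and 11.9% lower among all genes), with a median log2 change of 0.353. MT2A, a zinc-binding metallothionein, was at 760 ± 84.3 FPKM in controls and 1330 ± 8.47 with TGFbeta1 (SD, n = 3; log2 change 0.81, adjusted p = 0.00247). MT2A was also the 1 gene of this list that was called in the second set, at 848 ± 18.7 FPKM in controls against 1100 ± 27.1 in libraries labelled TGFbeta1 (log2 change 0.38, adjusted p = 0.0491).

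Nucleoside and nucleotide transporters. Of 15 tested members 1 rose and 4 fell (33.3% called, beside 20.9% of all genes). The equilibrative nucleoside transporters went in different directions. SLC29A1, the main plasma membrane transporter of the 3, was at 20.5, 20.9 and 22.2 FPKM in controls and 34.9, 26.6 and 31.4 FPKM with TGFbeta1 (log2 change 0.52, SE 0.11, adjusted p = 0.0274). SLC29A2 was at 4.03, 3.02 and 4.12 FPKM and 1.71, 1.63 and 0.971 FPKM (log2 change -0.96, SE 0.17, adjusted p = 0.0149), and the lysosomal SLC29A3 at 5.19, 5.54 and 4.38 FPKM and 2.66, 2.79 and 1.06 FPKM (log2 change -0.97, SE 0.26, adjusted p = 0.0498). The first was higher, and the other two lower, in every treated library of the first set. SLC43A3, a purine nucleobase transporter, fell from 41.9, 41.8 and 49.9 FPKM to 19.3, 18 and 21.1 FPKM (log2 change -1.15, SE 0.10, adjusted p = 0.00143), and SLC35A1, which supplies CMP-sialic acid to the Golgi, from 10.6, 9.69 and 9.94 FPKM to 6.63, 6.76 and 7.8 FPKM (log2 change -0.46, SE 0.09, adjusted p = 0.019). The call of SLC43A3 held without any 1 library. Calls were lost for SLC29A1 without any 1 control, TGFbeta1 1 or TGFbeta1 3 (adjusted p = 0.0514 to 0.0849), SLC29A2 without control 1 (adjusted p = 0.0543), SLC29A3 without any 1 control, TGFbeta1 1 or TGFbeta1 2 (adjusted p = 0.0674 to 0.131) and SLC35A1 without control 1, TGFbeta1 1 or TGFbeta1 2 (adjusted p = 0.0647 to 0.0666). SLC29A3 lay at the threshold and also lost its call under every other scaling (adjusted p = 0.0618 with median of ratios, 0.0663 with an equal sum, 0.0599 with quantile normalisation) and 5 other settings (adjusted p = 0.0504 to 0.0687). With a term for the replicate number in limma its adjusted p was 0.0532.

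Mitochondrial carriers. Family 25 was the largest class, and 9 of its 33 tested members fell and 2 rose in the first set. That is 33.3% called, beside 20.9% of all genes, with a median log2 change of -0.256 beside -0.055 over all genes. The summed level of the tested members was 1234 ± 69.7 FPKM in controls and 997 ± 80.6 with TGFbeta1 (SD, n = 3). A large part of this fall lay in SLC25A3, which was not called and is given below. SLC25A23, a calcium-regulated ATP-Mg/phosphate carrier, was at 14, 13.6 and 12.9 FPKM in controls and 5.92, 7.96 and 6.86 FPKM with TGFbeta1 (log2 change -0.88, SE 0.11, adjusted p = 0.00491). SLC25A24, a carrier of the same substrates, was at 15.7, 16.3 and 16.7 FPKM and 22.6, 22.2 and 22.7 FPKM (log2 change 0.45, SE 0.06, adjusted p = 0.00617). These 2 carriers, which are not the only ATP-Mg/phosphate carriers of the family, thus moved in opposite directions. Each had no overlap between groups, and both calls held without any 1 library.

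Of the 3 ADP/ATP exchanger genes, 2 fell. SLC25A5 and SLC25A6 were, with the phosphate carrier SLC25A3, the most abundant genes of the family in the first set, while SLC25A4 was low. SLC25A5 was at 272, 284 and 281 FPKM in controls and 240, 232 and 228 FPKM with TGFbeta1 (log2 change -0.26, SE 0.05, adjusted p = 0.0198), SLC25A4 at 6.57, 7.79 and 6.36 FPKM and 4.14, 4.57 and 4.72 FPKM (log2 change -0.53, SE 0.10, adjusted p = 0.0193), and SLC25A6 at 141, 144 and 133 FPKM and 188, 148 and 141 FPKM (log2 change 0.18, SE 0.12, adjusted p = 0.354). SLC25A4 and SLC25A5 were lower in every treated library, and SLC25A6 overlapped. These 3 genes are close copies of each other, and reads shared between them or with their pseudogenes make their separate values uncertain. The first-set value of SLC25A6 is also a sum over 2 listed transcripts, which are placed on 2 chromosomes. SLC25A3 was at 411, 280 and 423 FPKM in controls and 271, 263 and 212 FPKM with TGFbeta1 (log2 change -0.56, SE 0.19, adjusted p = 0.0961), which did not pass the threshold. Calls were lost for SLC25A5 without control 1, control 2, TGFbeta1 2 or TGFbeta1 3 (adjusted p = 0.0506 to 0.0728) and SLC25A4 without control 1, TGFbeta1 1 or TGFbeta1 2 (adjusted p = 0.0519 to 0.0652). SLC25A5 also lost its call under other scalings (adjusted p = 0.07 with an equal sum, 0.0556 with quantile normalisation).

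Other mitochondrial falls were those of the glutamate carrier SLC25A22 (log2 change -0.64, adjusted p = 0.0414), the pyrimidine nucleotide carrier SLC25A33 (-0.57, 0.0142), the ornithine carrier SLC25A15 (-0.49, 0.0487), the iron importer SLC25A28 (-0.31, 0.0259) and the aspartate-glutamate exchanger SLC25A13 (-0.30, 0.0499). The other rise was that of SLC25A40, at 7.87, 7.7 and 7.48 FPKM in controls and 9.09, 10.4 and 10 FPKM with TGFbeta1 (log2 change 0.32, SE 0.08, adjusted p = 0.0405). Calls were lost for SLC25A22 without any 1 control, TGFbeta1 1 or TGFbeta1 2 (adjusted p = 0.0633 to 0.12), SLC25A33 without TGFbeta1 2 (adjusted p = 0.0539), SLC25A15 without any 1 library (adjusted p = 0.0719 to 0.132), SLC25A28 without control 1, control 2 or any 1 TGFbeta1 library (adjusted p = 0.0692 to 0.0816), SLC25A13 without any 1 library (adjusted p = 0.0689 to 0.14) and SLC25A40 without any 1 library (adjusted p = 0.0549 to 0.119). Other scalings ended the calls of SLC25A13 (adjusted p = 0.0779 with median of ratios, 0.108 with an equal sum, 0.0838 with quantile normalisation), SLC25A15 (0.0687 with median of ratios, 0.0853 with an equal sum, 0.0628 with quantile normalisation), SLC25A22 (0.0558 with an equal sum) and SLC25A28 (0.0534 with median of ratios, 0.0831 with an equal sum, 0.0615 with quantile normalisation). Further settings ended those of SLC25A13 (0.05 to 0.0589), SLC25A15 (0.0507 to 0.0573), SLC25A22 (0.0564) and SLC25A40 (0.0505).

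**Figure D3:**
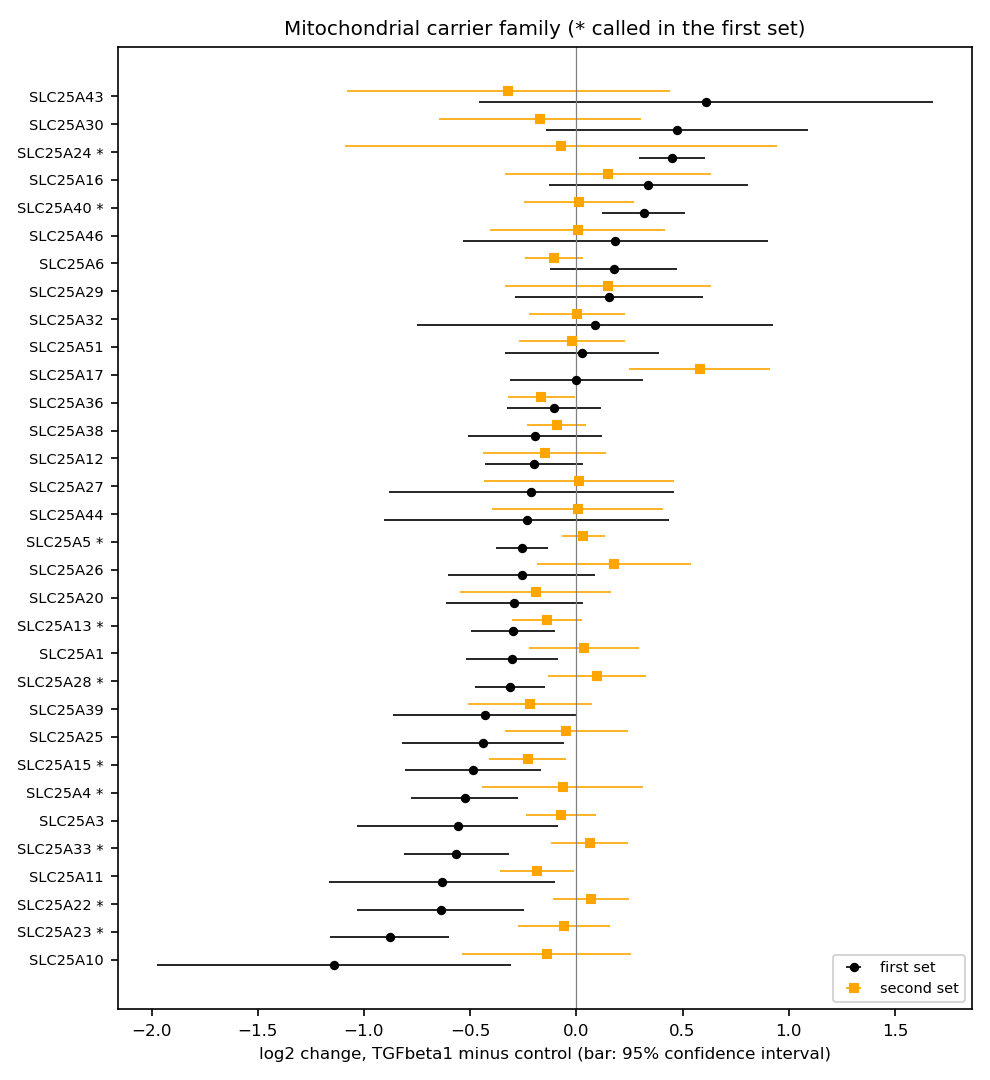
Log2 change (x axis, TGFbeta1 minus control) with its 95% confidence interval from limma for 32 of the 33 family 25 genes tested in the first set (y axis, ordered by that change), in the first set (black circles) and the second set (orange squares); an asterisk marks a call in the first set. The first-set changes shown run from -1.14 (SLC25A10, not called) to 0.61, and 8 of the called genes shown lie below 0 and 2 above.

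Transporters of vitamins, lipids, amines and other substrates. SLC46A3 had the largest rise of the tested SLC genes on the log2(FPKM + 1) scale. It encodes a lysosomal membrane protein of the family that holds the folate transporter SLC46A1, and was at 1.76, 2.12 and 2.65 FPKM in controls and 8.47, 7.51 and 8.14 FPKM with TGFbeta1 (log2 change 1.52, SE 0.12, adjusted p = 0.00112), with all treated libraries far above all controls. SLC46A1 itself was at 2.2, 2.32 and 2.71 FPKM and 1.96, 2.7 and 2.48 FPKM (log2 change -0.02, SE 0.12, adjusted p = 0.941). SLC33A1, which imports acetyl-CoA into the endoplasmic reticulum, was at 5.81, 4.07 and 4.47 FPKM and 7.25, 6.92 and 7.32 FPKM (log2 change 0.51, SE 0.13, adjusted p = 0.042). The reduced folate carrier SLC19A1 was the 1 vitamin transporter of 9 tested that fell, from 4.11, 4.45 and 4.82 FPKM to 3.03, 3.09 and 3.29 FPKM (log2 change -0.40, SE 0.09, adjusted p = 0.0276), and 2 rose (33.3% called, beside 20.9% of all genes). Calls were lost for SLC33A1 without control 2, control 3 or any 1 TGFbeta1 library (adjusted p = 0.0981 to 0.112) and SLC19A1 without control 2, control 3 or any 1 TGFbeta1 library (adjusted p = 0.0533 to 0.0872), and SLC33A1 had an adjusted p = 0.0724 with transcripts of both tables only. SLC5A6, which imports biotin and pantothenate, was at 12.1, 11.7 and 14.5 FPKM in controls and 9.75, 8.8 and 10.5 FPKM with TGFbeta1 (log2 change -0.37, SE 0.11, adjusted p = 0.0714).

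Among 9 tested transporters of lipids, choline and bile acids 1 was called (11.1%, beside 20.9% of all genes). SLC44A2, a choline transporter-like protein, fell from 17.8, 18 and 14.6 FPKM to 8.04, 9.65 and 7 FPKM (log2 change -0.95, SE 0.14, adjusted p = 0.00796), with a gap between the groups. SLC27A5, a bile acid and fatty acid CoA ligase, was at 22.1, 26.3 and 24.7 FPKM in controls and 17.7, 8.23 and 13.6 FPKM with TGFbeta1 (log2 change -0.89, SE 0.26, adjusted p = 0.0665). Of 6 tested transporters of amines and organic ions 2 fell (33.3%, beside the same 20.9%). SLC18B1, a polyamine transporter of vesicles, went from 11.3, 11.9 and 10.9 FPKM to 7.26, 7.45 and 7.27 FPKM (log2 change -0.57, SE 0.07, adjusted p = 0.00411), and the creatine transporter SLC6A8 from 23.2, 23.6 and 23.3 FPKM to 17.1, 17.9 and 17.5 FPKM (log2 change -0.40, SE 0.06, adjusted p = 0.00833). Replicates of these 2 genes lay close together and the groups were well apart. In the class of other substrates 1 of 9 was called, SLC35F2, which rose from 16.2, 17.3 and 16 FPKM to 22.9, 25 and 24 FPKM (log2 change 0.51, SE 0.07, adjusted p = 0.00607), while SLC35F3 of the same subfamily was at 1.19, 1.12 and 1.21 FPKM and 1.13, 1.45 and 1.95 FPKM (log2 change 0.20, SE 0.14, adjusted p = 0.377). The calls of SLC46A3, SLC44A2, SLC18B1, SLC6A8 and SLC35F2 held without any 1 library.

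**Figure D4:**
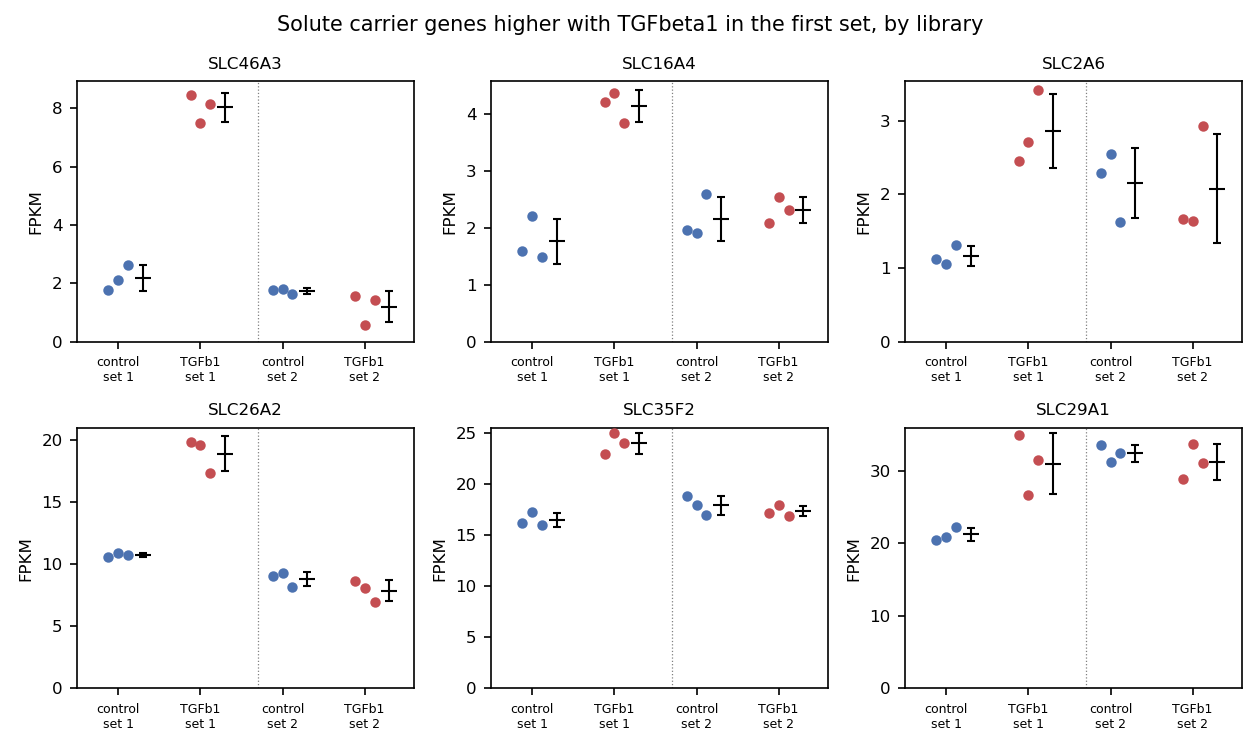
FPKM (y axis, linear from 0) of 6 SLC genes called higher with TGFbeta1 in the first set, in each library (points) with the mean and SD (bars, n = 3) for control and TGFbeta1 groups of both sets (x axis). In the first set every TGFbeta1 library lies above every control in each panel, and in the second set the groups overlap, except that SLC46A3 is lower in all 3 libraries labelled TGFbeta1.

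On hg19, per the files, genes with large changes were SLC6A14 (ENSG00000268104.2_1) on chromosome X, 115567790 to 115592625, SLC7A5 (ENSG00000103257.8_1) on chromosome 16, 87863629 to 87903094, SLC43A3 (ENSG00000134802.17_2) on chromosome 11, 57174427 to 57194929 and SLC46A3 (ENSG00000139508.14_1) on chromosome 13, 29274217 to 29293107. A span covers every protein-coding transcript that the table lists for the gene, over which its FPKM was summed. SLC6A14 and SLC7A5 have 1 listed transcript each.

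In the second set no SLC gene was called. Of 165 tested, 0 passed with limma, beside 0.321% of all 10579 genes, and the smallest adjusted p of an SLC gene was 0.119. At an unadjusted p under 0.05 there were 20 (12.1% of those tested), beside 11.2% of all genes. The authors' deposited table for this set gives a q under 0.05 for 0 of its 440 SLC transcripts and for 28 transcripts in all. Without TGFbeta1 5, 1 SLC gene was called higher, the mitochondrial iron importer SLC25A37 (log2 change 1.53, adjusted p = 0.0399), and without TGFbeta1 6, 1 was called lower, SLC35F6 (log2 change -1.64, adjusted p = 0.0422). The markers of other cell types that are listed in this table (CD14, HBB and ALB, 3 of 14) summed to 4.66 to 9.19 FPKM in controls and 10.2 to 19.5 in libraries labelled TGFbeta1, and their part in these values was not tested. All 3 libraries labelled TGFbeta1 lay above the controls for 18 SLC genes and below for 16, 20.6% of those tested, beside 19.3% of all genes. On simulated data with 100 genes changed by 1 on the log2 scale, the procedure recovered 64% in this set and 66% in the first set. For 100 genes changed by 0.5 it recovered 22% and 17%. The changed genes were drawn without those of low mean level, and the noise was normally distributed. Far fewer genes were changed than were called in the first set. These shares therefore do not give the power for SLC genes of low level.

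None of the genes that led the first set was called in the second. SLC7A5 was at 189, 180 and 181 FPKM in controls 4 to 6 and 191, 199 and 214 FPKM in libraries labelled TGFbeta1 4 to 6 (log2 change 0.13, 95% interval -0.01 to 0.27). SLC3A2 was at 74.5, 85.6 and 86.6 FPKM and 76, 95.5 and 83.4 FPKM (log2 change 0.04, 95% interval -0.21 to 0.30). Neither interval reaches the fall of the first set. SLC6A14 was at 2.12, 1.92 and 1.32 FPKM in controls and 2.84, 3.11 and 2.85 FPKM in libraries labelled TGFbeta1 (log2 change 0.51, adjusted p = 0.281). Every library labelled TGFbeta1 was above every control, opposite to the first set, without passing the threshold. SLC46A3 was at 1.77, 1.81 and 1.64 FPKM and 1.57, 0.586 and 1.44 FPKM (log2 change -0.35, 95% interval -0.84 to 0.14), below the controls in each library labelled TGFbeta1. SLC1A3 was at 34.4, 33.9 and 37.4 FPKM and 31.4, 31.2 and 31.1 FPKM (log2 change -0.17, 95% interval -0.31 to -0.03), lower in every library labelled TGFbeta1, as in the first set, but by less. Of the 46 first-set calls tested in the second set, 43 had a second-set 95% interval that did not include the first-set change. These genes were picked by their first-set change, and the error of that change was left out. This count is therefore no test of a difference between the sets, for which the interaction below was fitted.

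The genes with the smallest p in the second set were others. SLC35F6 was at 8.22, 6.67 and 7.27 FPKM in controls and 1.62, 1.75 and 3.45 FPKM in libraries labelled TGFbeta1 (log2 change -1.40, adjusted p = 0.119), and in the first set at 2.18, 2.5 and 1.94 FPKM and 1.58, 2.29 and 1.77 FPKM (log2 change -0.16). The fatty acid transport protein gene SLC27A1 was at 2.28, 1.87 and 2.47 FPKM and 1.07, 0.9 and 1.14 FPKM (log2 change -0.65, adjusted p = 0.128). SLC39A8, an importer of zinc and manganese, was at 22.3, 23 and 23.2 FPKM and 18, 17.1 and 18.6 FPKM (log2 change -0.34, adjusted p = 0.124). These 3 were lower in every library labelled TGFbeta1. Higher in every such library were SLC10A6, a sodium-coupled carrier of steroid sulfates, at 3.12, 3.35 and 3.04 FPKM and 5.45, 5.65 and 4.2 FPKM (adjusted p = 0.195), and the peroxisomal carrier SLC25A17, at 4.36, 5.62 and 4.76 FPKM and 8.57, 8.48 and 6.5 FPKM (adjusted p = 0.231). SLC39A1 was at 63, 20.9 and 22.6 FPKM in controls and 82.3, 65.4 and 61 FPKM in libraries labelled TGFbeta1 (adjusted p = 0.417), with 1 control among the values of the labelled libraries. The members with the smallest p of other classes gave no call either: SLC16A1 had a log2 change of 0.21, SLC16A3 0.14, SLC2A9 0.25, SLC12A8 -0.27, SLC22A18 -0.52, SLC22A23 0.15, SLC35C1 -0.16 and SLC35G1 0.20.

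The change differed between the sets for 30 SLC genes. The interaction was tested in 1 limma model with each set's change taken within its own table, and of 167 tested SLC genes the second set's change was higher than the first's for 21 and lower for 9 (18%), beside 13.6% of all 10548 genes (7.56% higher and 6.06% lower). Of the 30, 27 had a call in the first set, which is 57.4% of the 47 first-set calls. The difference was 4.03 for SLC6A14 (adjusted p = 2.44e-07), 2.59 for SLC7A5 (adjusted p = 0.0145) and -1.87 for SLC46A3 (adjusted p = 0.000659), on the log2 scale. SLC35F6, SLC27A1 and SLC39A8 were the 3 without a first-set call. This fit shares all its libraries with the fits of each set, so it restates their difference and adds no samples.

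**Figure D5:**
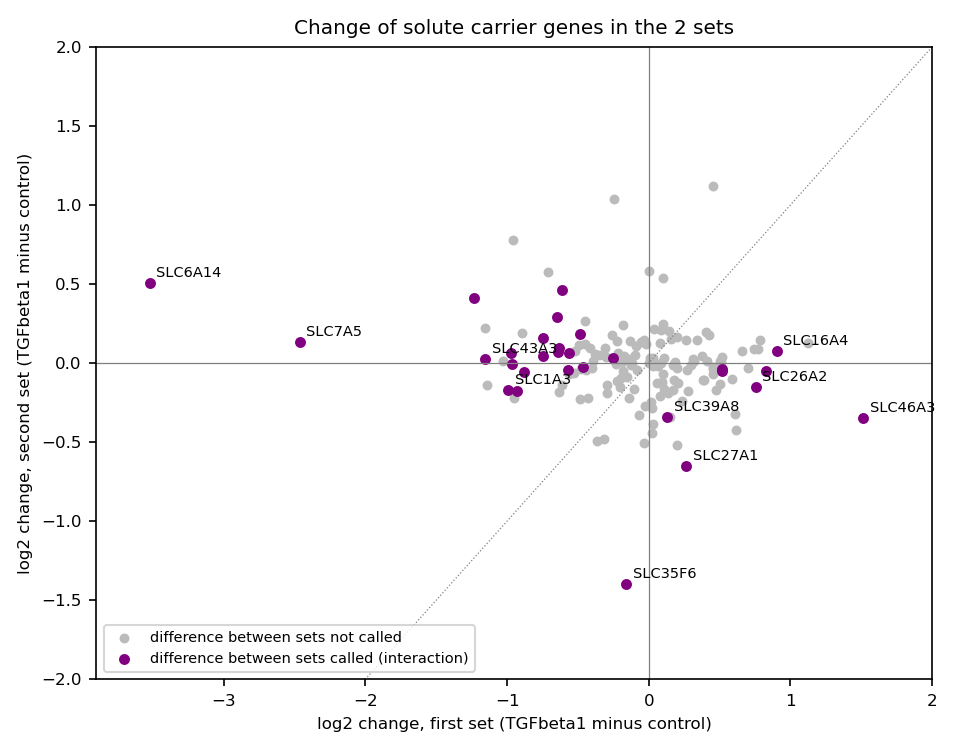
Log2 change in the second set (y axis) against the first set (x axis), TGFbeta1 minus control, for each SLC gene tested in both; purple points are genes whose change differs between the sets by the interaction test of limma, and the dotted line marks equal changes. SLC6A14 (-3.52 and 0.51) and SLC7A5 (-2.46 and 0.13) lie far left with second-set changes near or above 0.

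Over both sets together, with the set as a term, SLC16A14 was the 1 SLC gene called of 167 tested (0.599%), beside 0.502% of all 10548 genes (0.313% higher and 0.190% lower). At an unadjusted p under 0.05 there were 38 SLC genes (22.8%), beside 19.2% of all genes. It was at 1.16, 1.11 and 1.11 FPKM in controls and 0.769, 0.529 and 0.667 FPKM in libraries labelled TGFbeta1 of the second set, below the filter for a test in that set alone. Its mean reached 1 FPKM through the controls only, so this call comes from a gene that the filter admitted by its higher group. Every library labelled TGFbeta1 was below every control in both sets (log2 change over both sets -0.58, SE 0.09, adjusted p = 0.0243). The call was lost without any 1 of the libraries of the first set, where no SLC gene was then called.

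Single transcripts gave fewer calls than gene sums. Of 256 SLC transcripts tested in the first set, 3 were higher and 10 lower, beside 5.54% of all transcripts called in either direction. They belong to 13 genes, and no gene had transcripts called in both directions. The SLC43A3-003 transcript fell from 27.2, 27.3 and 33.5 FPKM to 9, 8.72 and 11.8 FPKM (log2 change -1.49, adjusted p = 0.00793), and SLC46A3-003 rose from 1.76, 1.67 and 2.3 FPKM to 7.81, 7.14 and 7.41 FPKM (log2 change 1.54, adjusted p = 0.00452). For SLC3A2 the transcript called was the minor SLC3A2-002, at 3.47, 5.92 and 2.59 FPKM in controls and 0.664, 0.793 and 0.992 FPKM with TGFbeta1 (adjusted p = 0.0474). SLC41A3-024, of a magnesium transporter gene without a gene-level call, fell from 8.12, 7.01 and 6.77 FPKM to 4.48, 3.69 and 3.99 FPKM (log2 change -0.72, adjusted p = 0.0403). In the second set the same transcript, listed as SLC41A3-201, went the other way without a call. It was at 3.27, 2.95 and 4.05 FPKM in controls and 6.61, 6.12 and 8.49 FPKM in libraries labelled TGFbeta1 (log2 change 0.86, adjusted p = 0.307 with limma). None of 282 SLC transcripts tested in the second set was called, beside 0.221% of all, and 19 had an unadjusted p under 0.05.

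Genes that work with SLC proteins or carry the same kinds of solutes under other names were counted from a separate list. Among these, 4 of 29 tested in the first set fell, FLVCR2, MPC2 and SLC9A3R2 among them, and 1 rose (ATP1B1). That is 17.2% called, below the 20.9% of all genes, and the median log2 change was -0.255. ATP1B1, a beta subunit of the sodium pump that drives sodium-coupled SLC carriers, was at 5.02 ± 1.36 FPKM in controls and 15 ± 0.272 FPKM with TGFbeta1 (log2 change 1.44, adjusted p = 0.00422; errors are SD, n = 3), and the beta subunit gene ATP1B3 had a log2 change of -0.63 (adjusted p = 0.146). BSG, which brings SLC16A1 and SLC16A3 to the cell surface, had 181 ± 8.63 FPKM in controls against 158 ± 1.15 with TGFbeta1 (log2 change -0.19, adjusted p = 0.0658). None of 30 was called in the second set, with a median of 0.024.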

How the data were processed

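RNA of 12 MCF-12A libraries (6 control, 6 TGFbeta1) was extracted with Trizol and made into Illumina libraries, per the labels' protocols. Reads were handled with HISAT2 2.0.4, StringTie 1.2.3, cutadapt and FastQC on hg19, per the submitters' processing notes; strand setting and annotation release: not given in the sources used here. FPKM values were deposited by the authors per protein-coding transcript in 2 separately normalised tables (44112 and 29204 transcripts). The second table's group means name FPKM in their headers; for the first table the unit is inferred from its values. The second table also holds the authors' deposited log2 group means, log2 and linear fold changes, q-values and p-values.

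FPKM was summed per gene, and genes with a mean of at least 1 FPKM over the fit's libraries were tested with limma 3.58.1 (R 4.3.3; mean-variance trend, two-sided, Benjamini-Hochberg over all genes) on log2(FPKM + 1), which understates changes of low genes. Calls have an adjusted p under 0.05. FPKM is relative to each library's total, no counts were used, and depth and counting error are unknown. The members and lists were chosen with earlier results of these data known. Genes were named as the largest changes, the 2 smallest p per class and set, the 3 most abundant per set and 18 fixed genes; all other first-set calls, SLC4A3, SLC4A7, SLC25A37 and SLC43A2 were named after their values were seen. A few genes entered all fits and counts but are not reported here. The procedure was tested on simulated data. Transcript tests were added after seeing the data. Promoter windows are from RefSeq, GRCh38.p14. Tables and plots used Python 3.11.15, pandas 2.3.3, numpy 2.4.6 and matplotlib 3.10.9.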

Additional observations from a re-analysis of the deposited data

Results flagged for a closer look

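The log2 change in the second set differed from that in the first set by the interaction test of limma (adjusted p under 0.05) for each solute carrier gene given here, and the value in parentheses is the second set's change minus the first set's. It was positive for 20 genes reported here, SLC6A14 (4.03), SLC7A5 (2.59), SLC43A3 (1.18), SLC48A1 (1.07), SLC29A3 (1.04), SLC16A7 (0.96), SLC4A11 (0.94), SLC45A4 (0.91), SLC1A3 (0.82), SLC25A23 (0.82), SLC3A2 (0.79), SLC16A5 (0.75), SLC4A2 (0.73), SLC25A22 (0.71), SLC38A2 (0.67), SLC25A33 (0.63), SLC18B1 (0.52), SLC35A1 (0.44), SLC16A14 (0.42) and SLC25A5 (0.29). It was negative for 9 genes, SLC46A3 (-1.87), SLC35F6 (-1.24), SLC27A1 (-0.92), SLC26A2 (-0.91), SLC2A6 (-0.87), SLC16A4 (-0.83), SLC29A1 (-0.57), SLC35F2 (-0.55) and SLC39A8 (-0.47). For SLC27A1, SLC35F6 and SLC39A8 the first set gave no call, and all 3 libraries labelled TGFbeta1 in the second set lay below all 3 controls. In every other gene named here the first set gave a call. The part that the absence of the TGFbeta response genes' rise in the second set has in these differences was not tested.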

How the results depend on the processing

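In the first set, 16 SLC genes were higher and 31 lower. Leaving out each library in turn gave 7 to 12 higher and 16 to 28 lower, a minimum mean of 5 FPKM gave 19 lower, and a log2 change of at least 1 gave 1 higher and 4 lower. With the replicate block (a term for the replicate number) there were 7 higher and 17 lower. Of the 47 first-set calls, 23 were kept with it. That setting is left out of most lists of lost calls above. Deviations of same-numbered libraries had small positive correlations (r = 0.007 to 0.046), beside -0.053 to 0.014 for other pairs. Control 3 and TGFbeta1 3 correlated slightly better with another number. Other scalings gave 17 higher and 24 to 27 lower. In the second set, 0 were called, and leaving out a library gave 0 to 1 higher and 0 to 1 lower. Over both sets the 1 lower call became 0 with a minimum of 5 FPKM, with the replicate block, with transcripts of both tables only and with a log2 change of at least 1, and 0 to 1 without each library. For the interaction, 21 were higher and 9 lower; a minimum of 5 FPKM gave 4 lower, and a log2 change of at least 1 gave 6 higher and 2 lower. The cause was not tested, except that fewer genes are tested under a higher minimum and fewer libraries are used when 1 is left out. Where a group was left with 2 libraries, the spread was pooled over groups. Depth is unknown, so its limits cannot be given.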
